A study of Homo sapiens with 6 samples.

Results

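The transcripts of 8 transcription factors that set intestinal cell identity were followed in LS 174T cells. Cells given 4 mM propionate for 4 h (n = 3 libraries) were compared with control cells, labelled NC (n = 3 libraries). The 8 genes are the forkhead factors FOXA1, FOXA2 and FOXA3, the homeobox factors CDX1 and CDX2, the nuclear receptors HNF4A and HNF4G, and the zinc finger factor GATA6. They were picked by gene symbol out of 24462 symbols, and each stood on 1 line of every count table. LS 174T is a single established human colorectal adenocarcinoma line, used as a goblet cell model, and propionate is a short-chain fatty acid made by gut bacteria from fiber. The label of the control states no treatment, and no time is given for the controls. Propionate is the only treatment that the labels name, and whether the groups differ in it alone is not stated.

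FOXA proteins are pioneer factors: they bind their sites in closed chromatin and let other regulators in. CDX2 holds the intestinal program in place in the mouse gut, with CDX1 acting beside it. HNF4 receptors drive genes of enterocyte metabolism and lipid handling, and HNF4A and HNF4G can stand in for each other in the mouse intestine. GATA6 takes part in endoderm formation and in the proliferation of intestinal crypts.

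Totals ran from 11645597 to 12746170 reads in propionate libraries and from 11603288 to 11921005 reads in controls, so that 3 reads were worth 0.235 to 0.259 CPM (reads divided by the library total, times 1000000). Whether the libraries came from separate cultures is not in the labels, so p-values measure only how these libraries vary, and that variation may be technical. All 16 colon epithelium markers passed the filter on low counts, and their summed level was 7136 to 7977 CPM in propionate libraries and 5971 to 7179 CPM in controls. Of 13 goblet cell markers 1, ATOH1, which drives the secretory lineage, was listed at 0 in every library; the annotation used for counting is not known, so that 0 may not measure the gene. The summed level of the list was 1170 to 1199 CPM with propionate and 1209 to 1241 CPM in controls. Markers of other cell types were low in both groups. Those of liver summed to 11.5 to 13.7 CPM with propionate and 12.3 to 13.7 CPM in controls, those of enteroendocrine cells to 3.10 to 5.39 CPM with propionate and 4.81 to 5.82 CPM in controls, and those of absorptive cells to 4.11 to 5.95 CPM with propionate and 4.54 to 8.75 CPM in controls. Fibroblast markers summed to 11.1 to 14.1 CPM with propionate and 7.58 to 11.3 CPM in controls, leukocyte markers to 25.1 to 29.5 CPM with propionate and 33.1 to 36.4 CPM in controls, and endothelial markers to 1.09 to 2.17 CPM with propionate and 0.787 to 3.08 CPM in controls. Gastric markers summed to more, 493.1 to 615.8 CPM with propionate and 455.1 to 570.4 CPM in controls. Within that sum MUC5AC averaged 234.7 CPM with propionate and 235.2 CPM in controls, and TFF1 111.5 and 109.3 CPM. Of the 13 gastric markers 8 had too few reads to be tested, and GKN1, LIPF, PGA3 and PGC among them had no read in any library. CDH5 and VWF of endothelium, CD3D and CD3E of T cells, and DCN and PDGFRA of fibroblasts had no read in any library.

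With propionate FOXA1, CDX2, CDX1 and GATA6 fell and FOXA3 rose, while FOXA2, HNF4A and HNF4G did not pass the threshold (quasi-likelihood test of edgeR; a p adjusted by Benjamini-Hochberg over all 13605 tested genes had to be under 0.05). All 8 genes passed the filter on low counts. The 5 called genes made 62.5% of the 8, beside 34.2% of all tested genes, and 1 of 8 was higher and 4 of 8 lower where 17.2% and 17.0% of all tested genes were. The median log2 fold change of the 8 genes was -0.29, and that of all tested genes was -0.0069. The libraries of the groups did not overlap for 5 of the 8 genes, beside 45.2% of all tested genes. Since levels of different genes may depend on transcript length if reads were not taken from 3′ ends alone, levels are compared between groups and not between genes.

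**Figure D1:**
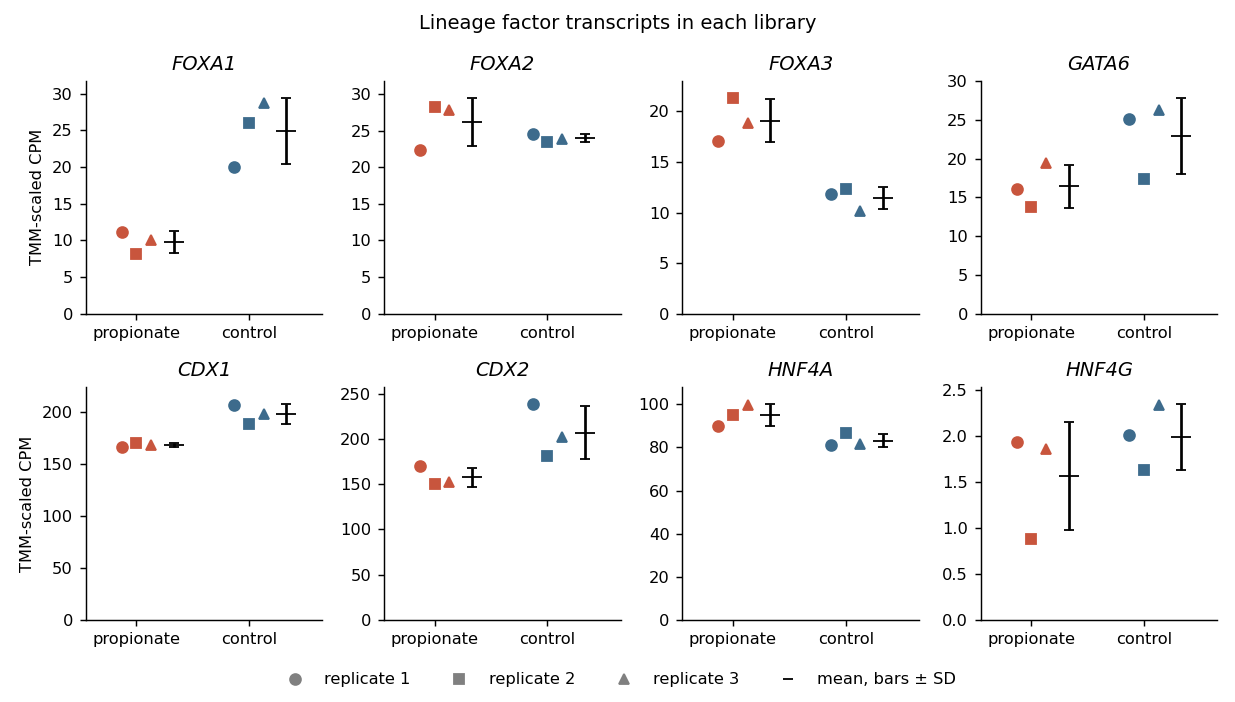
Level of each of the 8 factors, in CPM scaled with TMM factors on linear axes that start at 0, in each of the 3 propionate libraries (left in each panel) and 3 control libraries (right), with marker shapes for the replicate numbers and the mean ± SD beside the points. FOXA1 lay between 8.12 and 11.2 CPM with propionate and between 20.0 and 28.8 CPM in controls, and FOXA3 between 17.1 and 21.3 CPM with propionate and between 10.2 and 12.3 CPM in controls.

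The forkhead genes went different ways. FOXA1 had 11.2, 8.12 and 9.99 CPM in propionate libraries 1 to 3, against 20.0, 25.9 and 28.8 CPM in control libraries 1 to 3. Every propionate library was below every control, and the lowest control was library 1. FOXA1 averaged 9.76 ± 1.54 CPM with propionate and 24.9 ± 4.45 CPM in controls (mean ± SD, n = 3 each), a 2.55-fold fall (log2 fold change -1.35, SE 0.163, 95% interval -1.69 to -1.01, edgeR adjusted p = 3.85e-06). By the absolute size of its fitted change it stood within the top 3.61% of tested genes. In RNA from whole cultures, fewer cells with a transcript and less of it in each cell cannot be told apart. In GENCODE release 29 the gene TTC6 overlaps FOXA1 by 213 bases on the opposite strand. TTC6 had 3, 17 and 9 reads with propionate and 11, 11 and 9 reads in controls; how many FOXA1 reads came from the shared bases was not tested, as the tables hold no read positions.

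FOXA3 is known in the mouse as a liver and goblet cell factor. Its level was 17.1, 21.3 and 18.9 CPM in the propionate libraries, against 11.8, 12.3 and 10.2 CPM in controls. Here every propionate library was above every control. FOXA3 averaged 19.1 ± 2.12 CPM with propionate and 11.4 ± 1.13 CPM in controls and rose 1.67-fold (log2 fold change 0.74, SE 0.148, 95% interval 0.43 to 1.05, edgeR adjusted p = 0.000721).

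FOXA2, which shares much of its role in the gut with FOXA1 in mice, had 22.3, 28.2 and 27.8 CPM in propionate libraries and 24.6, 23.4 and 23.8 CPM in controls. The groups overlapped, with propionate library 1 below all controls and the other propionate libraries above them. Its log2 fold change was 0.12 with a 95% interval of -0.13 to 0.38 (edgeR adjusted p = 0.469), and it was -0.069 with the trend of each library with transcript GC content removed. In GENCODE release 29 the model AL121722.1 overlaps FOXA2 by 3257 bases on the same strand and was not analysed here.

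Within a library the ratio of 2 genes does not depend on how libraries are scaled. FOXA1 had 0.655, 0.381 and 0.529 times as many reads as FOXA3 in the propionate libraries, against 1.70, 2.10 and 2.83 times as many in controls. FOXA1 thus had fewer reads than FOXA3 in every propionate library and more in every control, with reads not scaled for transcript length. The mean log2 ratio of FOXA1 to FOXA3 was -0.97 ± 0.393 with propionate and 1.11 ± 0.370 in controls, a 4.24-fold lower ratio with propionate. FOXA1 relative to FOXA2 stood at -1.43 ± 0.401 on the log2 scale with propionate and 0.040 ± 0.297 in controls, and the libraries of the groups did not overlap. FOXA2 relative to FOXA3 stood at 0.45 ± 0.0951 with propionate and 1.07 ± 0.151 in controls, again with no overlap. No test was run on these ratios; the smallest p that an exact permutation test allows for 3 libraries against 3 is 0.1.

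**Figure D2:**
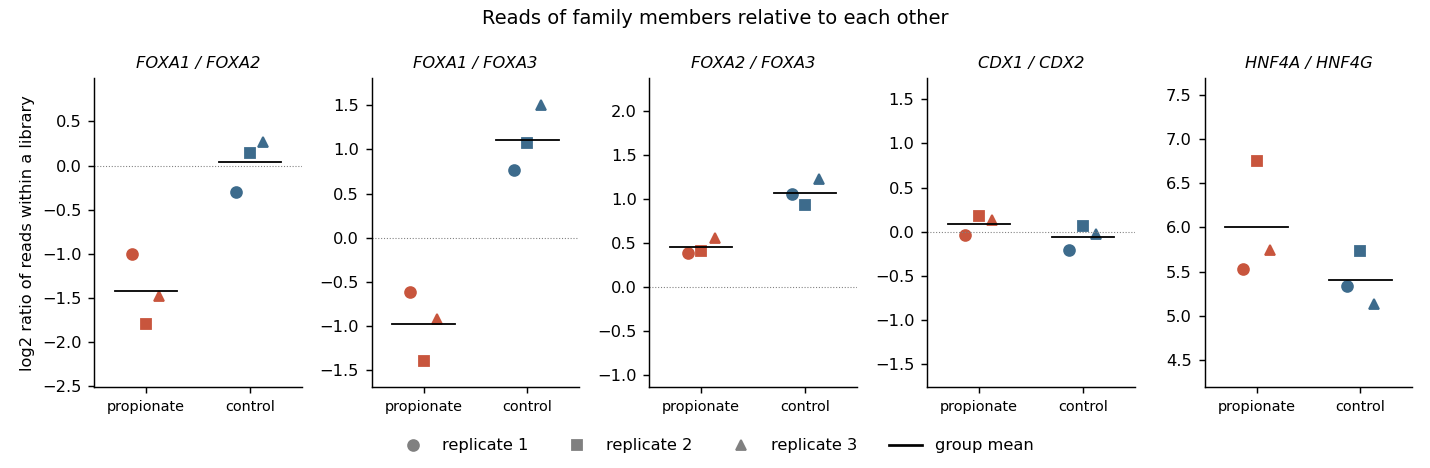
Log2 ratio of the reads of 2 genes of a family within each library, for propionate (left in each panel) and control (right), with lines at the group means; each panel spans the same range of log2 units. The FOXA1 to FOXA3 ratio averaged -0.97 with propionate and 1.11 in controls, while the ratios within the CDX and HNF4 families overlapped between the groups.

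The promoter windows of the forkhead genes that moved in opposite directions are shown for comparison, from RefSeq on GRCh38.p14 and read 5′ to 3′ on the strand of the gene, from 250 bases before to 50 bases after its start. RefSeq windows were found for 5 of the 8 genes, with 2 starts for HNF4A. Capitals mark letters of known binding motifs, searched on both strands: TGTTTAC or TGTTTGC for FOXA, TTTATNG for CDX, AGATAA for GATA, and CAAAGTCCA or CAAAGGTCA for HNF4. The motifs were chosen with these promoters in view, and a match is a description of letters, not a bound site.
FOXA1, chr14:37595200-37595499, minus strand: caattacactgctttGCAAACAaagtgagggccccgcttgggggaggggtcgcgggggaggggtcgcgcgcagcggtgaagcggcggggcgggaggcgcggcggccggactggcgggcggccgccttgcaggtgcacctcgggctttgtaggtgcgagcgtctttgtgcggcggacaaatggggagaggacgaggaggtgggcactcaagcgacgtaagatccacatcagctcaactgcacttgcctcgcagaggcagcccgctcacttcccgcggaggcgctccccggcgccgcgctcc
FOXA3, chr19:45864076-45864375, plus strand: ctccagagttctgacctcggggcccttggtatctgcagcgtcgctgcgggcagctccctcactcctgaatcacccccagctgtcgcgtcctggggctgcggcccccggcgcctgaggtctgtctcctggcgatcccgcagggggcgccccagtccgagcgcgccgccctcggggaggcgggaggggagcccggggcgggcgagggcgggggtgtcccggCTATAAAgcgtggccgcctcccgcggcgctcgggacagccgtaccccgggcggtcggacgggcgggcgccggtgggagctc
Both windows were rich in CpG, with 34 CpG in that of FOXA1 and 37 in that of FOXA3, where the median of 35116 RefSeq windows of this length was 14. The FOXA1 window held 1 match to a FOXA motif, on the reverse strand, and 7.17% of all windows held either FOXA motif. In the FOXA3 window the single match was to the CDX letters, found in 9.73% of all windows, and it overlaps the letters of a TATA box.

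Both CDX genes fell, and by less than FOXA1. CDX2 had 169.8, 150.5 and 152.7 CPM in propionate libraries, against 238.2, 180.7 and 201.7 CPM in controls. The groups did not overlap, and control library 1 was the highest of the 6. CDX2 averaged 157.6 ± 10.6 CPM with propionate and 206.8 ± 29.1 CPM in controls, a 1.31-fold fall (log2 fold change -0.39, SE 0.0963, 95% interval -0.59 to -0.19, edgeR adjusted p = 0.00374).

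CDX1 had 165.9, 170.0 and 167.6 CPM with propionate and 207.0, 188.4 and 198.1 CPM in controls. The propionate libraries lay close together and below all controls. CDX1 fell 1.18-fold, a size that placed it at the top 54.6% of tested genes by absolute change (log2 fold change -0.24, SE 0.0783, 95% interval -0.40 to -0.073, edgeR adjusted p = 0.0245). The call did not hold without any one of the propionate libraries or without control library 1 (adjusted p 0.0532 to 0.103). With the transcript GC trend removed the log2 fold change of CDX1 was -0.52 (edgeR adjusted p = 4.66e-05). The log2 ratio of CDX1 to CDX2 was 0.093 ± 0.111 with propionate and -0.056 ± 0.134 in controls, and its libraries overlapped.

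The CDX2 window is shown because, of the 6 windows of these genes, it held the most motif matches. Binding of any factor to these letters was not tested.
CDX2, chr13:27969266-27969565, minus strand: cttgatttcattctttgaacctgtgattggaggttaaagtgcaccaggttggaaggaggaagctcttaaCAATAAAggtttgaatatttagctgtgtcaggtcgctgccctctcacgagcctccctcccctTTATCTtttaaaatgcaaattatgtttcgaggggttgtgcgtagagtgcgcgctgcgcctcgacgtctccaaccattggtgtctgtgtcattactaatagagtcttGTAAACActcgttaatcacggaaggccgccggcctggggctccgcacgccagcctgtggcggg
Its 3 matches, given by the distance of their first base before the start of the gene, were the CDX letters at 181 bases, the GATA letters at 119 and the FOXA letters TGTTTAC at 13. Among all windows 9.73% held the CDX letters, 10.3% the GATA letters and 3.42% TGTTTAC. The GATA6 window held no match to any of these motifs. At HNF4A the upstream start had 1 match to the GATA letters and the downstream start had none.

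HNF4A and HNF4G did not pass the threshold. HNF4A had 89.8, 95.0 and 99.9 CPM in propionate libraries, against 81.2, 86.5 and 81.7 CPM in controls. The lowest propionate library was above the highest control, and 22.4% of all tested genes had propionate libraries above all controls. HNF4A averaged 94.9 ± 5.06 CPM with propionate and 83.1 ± 2.93 CPM in controls (log2 fold change 0.19, SE 0.0855, 95% interval 0.012 to 0.37, edgeR adjusted p = 0.0928). With a replicate block in the fit HNF4A passed (log2 fold change 0.19, adjusted p = 0.0169). With the GC trend of the last 500 transcript bases removed its log2 fold change was 0.035 (adjusted p = 0.774, range 0.0169 to 0.774 over its alternatives). The counts are per symbol and join the transcripts of both HNF4A starts.

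HNF4G had 25, 11 and 22 reads with propionate and 23, 19 and 28 reads in controls, a depth at which only larger differences could be seen. The ratio of its summed reads over summed library totals, propionate over control, was 0.792 (95% exact binomial interval 0.549 to 1.14, counting error only). The groups overlapped, and the fitted log2 fold change was -0.35 with an interval of -1.15 to 0.46 (edgeR adjusted p = 0.524).

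GATA6 had 16.1, 13.8 and 19.4 CPM in propionate libraries, against 25.1, 17.4 and 26.3 CPM in controls. Propionate library 3 was above control library 2, so the groups overlapped. GATA6 was lower with propionate in all 3 pairs of libraries with the same number, as was HNF4G, which did not pass. No label states that these libraries are pairs. GATA6 averaged 16.4 ± 2.79 CPM with propionate and 22.9 ± 4.86 CPM in controls, a 1.40-fold fall (log2 fold change -0.48, SE 0.163, 95% interval -0.82 to -0.14, edgeR adjusted p = 0.0275). It no longer passed without propionate library 1 or 2 or control library 1 or 3 (adjusted p 0.0754 to 0.125). GATA6-AS1, which overlaps GATA6 by 436 bases on the opposite strand, had 52, 47 and 38 reads with propionate and 35, 52 and 44 reads in controls, with overlapping groups and a log2 fold change of -0.018 (edgeR adjusted p = 0.968).

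Called genes followed the GC content of their transcripts, and the 8 factors were read against that. Tested genes were cut by transcript GC content into 5 groups of like size: 33.0% of the most GC-rich group were higher and 8.81% lower with propionate, while 8.26% of the most AT-rich group were higher and 22.4% lower. FOXA3 (60.8%) and CDX1 (62.8%) were in the most GC-rich group, FOXA2, CDX2, HNF4A and GATA6 in the next, FOXA1 (51.3%) in the middle and HNF4G (35.9%) in the most AT-rich one. Over the last 500 bases, which 3′ reads would come from, FOXA1 held 29% GC and was in the most AT-rich group. After removal of the GC trend by either measure, FOXA1, CDX1, CDX2 and GATA6 were still called lower and FOXA3 still called higher. FOXA1 had a log2 fold change of -1.25 with the trend of the last 500 bases removed (edgeR adjusted p = 4.53e-06). With the transcript trend removed, the log2 fold change of FOXA3 was 0.50 (edgeR adjusted p = 0.0110, range 3.93e-05 to 0.0110 over its alternatives) and that of CDX2 was -0.55 (adjusted p = 0.000195, range 9.52e-09 to 0.0359).

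**Figure D3:**
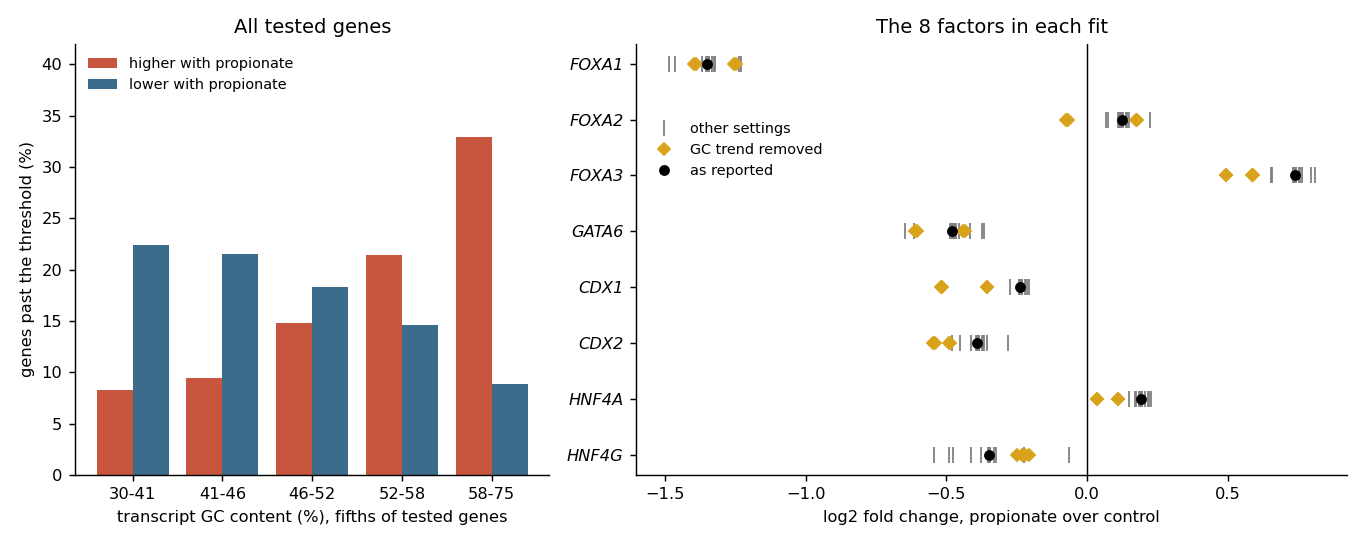
Left, percent of tested genes called higher or lower with propionate in 5 groups by transcript GC content, AT-rich to GC-rich. Right, log2 fold change (propionate over control) of each factor as reported (black), with a GC trend removed (diamonds) and in the other fits (grey ticks). FOXA1 stayed between -1.49 and -1.23 and FOXA3 between 0.49 and 0.81, while FOXA2 had values on both sides of 0.

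Relatives of the 8 factors changed in both directions. Of 15 listed relatives 6 had too few reads to be tested, among them GATA4 and CDX4 with none. Of the 9 tested ones 3 were higher and 3 lower (33.3% each), beside 17.2% and 17.0% of all tested genes. PDX1, a homeobox factor of duodenum and pancreas, had 9.65 ± 0.660 CPM with propionate and 4.79 ± 0.612 CPM in controls and rose 2.01-fold (edgeR adjusted p = 0.000517). ONECUT2, a cut-homeodomain factor related to HNF6, rose 1.63-fold, with 19.8 ± 0.910 CPM with propionate and 12.1 ± 1.10 CPM in controls (adjusted p = 0.000629). GATA3, known for its role in T cells and breast epithelium, had 19, 25 and 35 reads with propionate and 3, 1 and 8 reads in controls. All its propionate libraries were above the controls, and the ratio of summed reads was 6.29 (95% exact binomial interval 3.41 to 12.7). Control library 3 held 8 of the 12 control reads. The fitted log2 fold change of GATA3 was 2.61 with all libraries (edgeR adjusted p = 0.00105). It was 2.46 without control library 1, 2.17 without control library 2 and 3.55 without control library 3.

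NR2F2 and NR2F1, nuclear receptors of the COUP-TF group that bind sites like those of HNF4, fell 1.71-fold and 1.32-fold (edgeR adjusted p = 4.48e-06 and 0.000831). NR2F2 was at 52.6 ± 2.09 CPM with propionate and 90.0 ± 8.61 CPM in controls. GATA2 and NR2F6 had log2 fold changes of -0.16 and 0.079 and did not pass, though NR2F6 was at -0.34 with the transcript GC trend removed (edgeR adjusted p = 0.00467). LINC00261, a long noncoding RNA made next to FOXA2, had a log2 fold change of -0.48 (edgeR adjusted p = 0.0445). It still passed without control library 2 and did not pass when any other single library was left out (edgeR adjusted p 0.0527 to 0.222). With all libraries it did not pass under DESeq2 (adjusted p = 0.0777) or limma-voom (adjusted p = 0.0570). Nor did it pass with library totals, with upper-quartile factors or with the transcript GC trend removed (edgeR adjusted p 0.0569 to 0.0792).

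**Figure D4:**
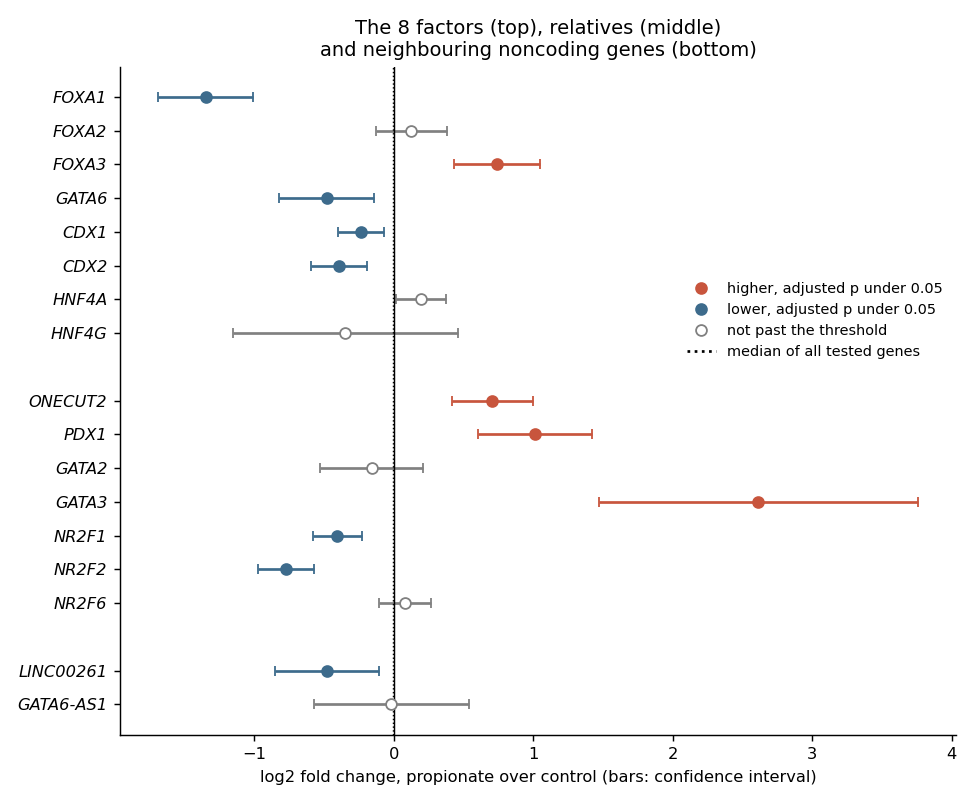
Log2 fold change, propionate over control, with its 95% interval for the 8 factors (top), relatives (middle) and neighbouring noncoding genes (bottom); filled points passed an adjusted p of 0.05 and the dotted line is the median of all tested genes. FOXA1 at -1.35 is the lowest of the points shown, and GATA3 at 2.61, which rests on 12 control reads in all, is the highest.

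Coregulators that these factors recruit or bind were described next, as 5 of 23 higher (21.7%) and 5 of 23 lower (21.7%), where 17.2% and 17.0% of all tested genes were. The coactivator PPARGC1A had 9.71 ± 1.77 CPM with propionate and 3.35 ± 0.709 CPM in controls. TLE3, a Groucho corepressor known to bind FOXA proteins, rose 1.56-fold and the coactivator NCOA3 rose 1.79-fold (edgeR adjusted p = 5.80e-05 and 0.000186). The acetyltransferase EP300 fell 1.88-fold, at 71.7 ± 6.61 CPM with propionate and 134.6 ± 7.44 CPM in controls, and GRHL2, an epithelial grainyhead factor, fell 1.62-fold.

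Genes known as targets of the 8 factors did not share one direction, and neither did all tested genes (17.2% higher, 17.0% lower). The lists were written from general knowledge and share members such as MUC2. Of 22 tested FOXA targets 4 were higher and 4 lower (18.2% each, near the shares of all tested genes), with a median log2 fold change of 0.013. Among the lower ones the secretory regulator XBP1 had 66.7 ± 5.49 CPM with propionate and 103.9 ± 10.1 CPM in controls (edgeR adjusted p = 4.26e-05), and among the higher ones the mucin glycosyltransferase GALNT12 rose 1.51-fold (adjusted p = 0.00827). ERN2 and ST6GALNAC1 were lower, and PCK1 and KRT18 were higher. KRT18 no longer passed without propionate library 1, control library 2 or control library 3 (edgeR adjusted p 0.0861 to 0.155), nor after removal of the transcript GC trend (adjusted p = 0.258).

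Of 25 tested CDX targets 7 were higher (28.0%) and 3 lower, with a median of 0.053. CDH17, the intestinal cadherin whose promoter CDX2 activates, fell 1.24-fold and was at 82.4 ± 1.76 CPM with propionate and 102.4 ± 4.25 CPM in controls (edgeR adjusted p = 0.00665). The desmosomal cadherin DSC2 fell 1.60-fold and the fucosyltransferase FUT2 fell 1.64-fold (adjusted p = 5.64e-06 and 0.000526). ABCB1, a drug efflux pump, rose 2.58-fold, with 27.6 ± 3.74 CPM with propionate and 10.7 ± 2.85 CPM in controls, and USH1C, a scaffold protein of the brush border, rose 1.38-fold (adjusted p = 4.78e-06 and 0.000936). KLF4 was higher too.

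The list of targets of HNF4 and its partners had 44 genes, of which 24 were too low to be tested, so its counts describe the expressed part only. Among the 20 tested genes 7 were higher (35.0%) and 2 lower (10.0%), beside 17.2% and 17.0% of all tested genes. Their median was 0.083. TMEM37, a calcium channel subunit, had 53, 52 and 20 reads with propionate and 8, 1 and 3 reads in controls, a ratio of summed reads of 9.95 (95% exact binomial interval 5.50 to 19.8). Control library 1 held 8 of those 12 control reads. The fitted log2 fold change of TMEM37 was 3.25 with all libraries (edgeR adjusted p = 0.000124). It was 4.22 without control library 1, 2.80 without control library 2 and 3.06 without control library 3. PKLR, the pyruvate kinase of liver and red cells, rose 2.19-fold, at 16.0 ± 2.50 CPM with propionate and 7.27 ± 1.02 CPM in controls. CREB3L3, a transcription factor of lipid metabolism, also rose. NR1I2, the xenobiotic receptor PXR, fell 2.09-fold (edgeR adjusted p = 0.00597).

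Of 21 tested GATA6 targets 3 were higher (14.3%) and 6 lower (28.6%), beside 17.2% and 17.0% of all tested genes. Their median was -0.074. The stem cell receptor LGR5 had 9.66 ± 3.41 CPM with propionate and 17.9 ± 4.02 CPM in controls and fell 1.85-fold (edgeR adjusted p = 0.00325). EPHB3, a receptor of crypt cells, fell 1.95-fold, and ASCL2 was lower as well. BMP2, a ligand of the BMP pathway, had 131 reads with propionate and 31 in controls, a ratio of 4.04 (95% exact binomial interval 2.71 to 6.18), and WNT7B rose 2.59-fold (adjusted p = 0.00129).

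Other regulators of the intestinal epithelium had 7 higher (25.0%) and 8 lower (28.6%) of 28 tested genes, beside 17.2% and 17.0% of all tested genes. ELF3, an epithelial ETS factor, rose 2.27-fold, with 510.0 ± 22.9 CPM with propionate and 225.1 ± 31.4 CPM in controls, while its relative EHF fell 1.57-fold (edgeR adjusted p = 2.54e-08 and 6.21e-05). The vitamin D receptor VDR rose 1.53-fold and MYB, a factor of crypt progenitors, fell 1.67-fold (adjusted p = 8.27e-06 and 2.19e-06).

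**Figure D5:**
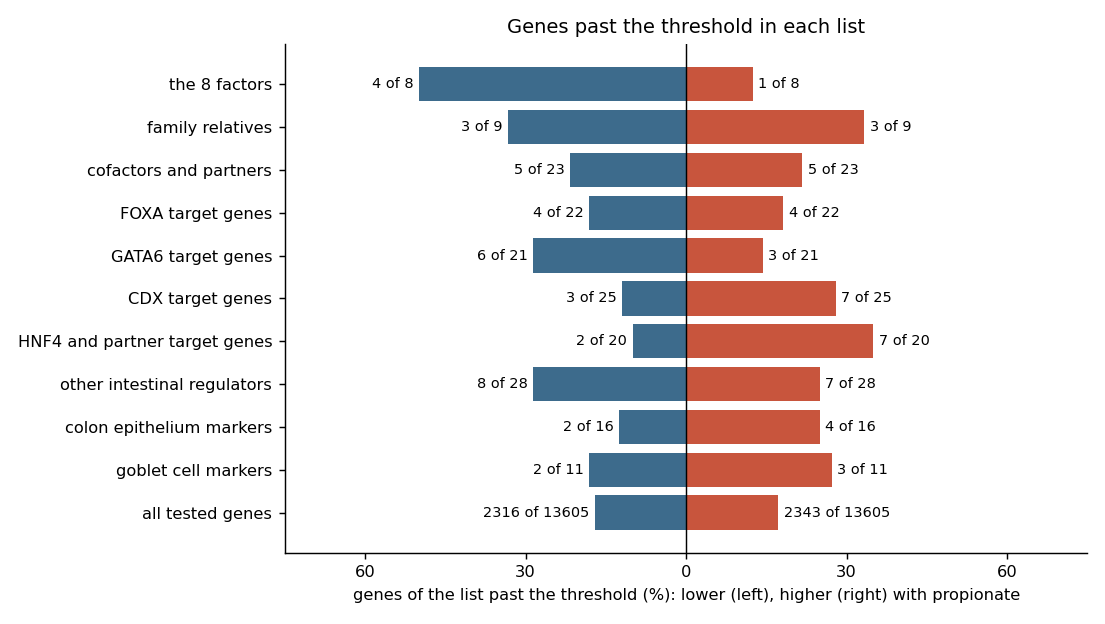
Percent of tested genes in each list that passed the threshold, lower with propionate to the left and higher to the right, with the counts beside the bars and all tested genes in the bottom row. Of the 8 factors 4 were lower and 1 higher, beside 17.0% lower and 17.2% higher among all tested genes.

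Markers of colon epithelium had 4 of 16 higher (25.0%) and 2 lower (12.5%), CDH17 among those lower, beside 17.2% and 17.0% of all tested genes. Among the higher ones the keratin KRT19 was at 978 ± 83.0 CPM with propionate and 719 ± 108 CPM in controls (edgeR adjusted p = 0.00141), a call that ended after removal of the transcript GC trend (adjusted p = 0.141). Goblet cell markers had 3 of 11 higher (27.3%) and 2 lower (18.2%), with SYTL2, KLF4 and the mucin MUC2 higher and RETNLB and ST6GALNAC1 lower. MUC2 was at 241 ± 20.0 CPM with propionate and 203 ± 20.5 CPM in controls. MUC2 did not pass without propionate library 1 or 2 or control library 1 or 3 (edgeR adjusted p 0.0817 to 0.184). With the transcript GC trend removed it did not pass either (log2 fold change 0.035, edgeR adjusted p = 0.784). Of 5 tested gastric markers 1, MUC6, was higher, and it did not pass without propionate library 1 or 2 or control library 3 (edgeR adjusted p 0.0890 to 0.194) or after removal of the GC trend. None of 3 tested liver markers, 2 absorptive cell markers and 1 endothelial marker passed. The enteroendocrine marker INSM1 was lower (0.786 ± 0.212 CPM with propionate, 2.58 ± 0.850 CPM in controls). COL1A1, a collagen gene listed for fibroblasts, had 137 reads with propionate and 31 in controls. LYZ was lower and CD14 higher. CD14 did not pass without propionate library 2 or 3 or control library 1 or 3 (edgeR adjusted p 0.0849 to 0.156). With the transcript GC trend removed CD14 did not pass either (edgeR adjusted p = 0.122). The part of these markers in the levels of the 8 factors was not tested.

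The genes whose log2 CPM followed FOXA1 most closely over the 6 libraries, out of 10791 tested genes above 5 CPM, were EXOC6, OR51E1, PHF2, HOXA7 and HOXA-AS3. Their Pearson correlations with FOXA1 ran from 0.995 to 1.00, and all 5 were lower in propionate libraries than in controls, so the points share the split into groups; the correlations are a description. OR51E1, an odorant receptor gene, was at 5.51 ± 0.940 CPM with propionate and 20.8 ± 3.95 CPM in controls, and PHF2, a histone demethylase gene, was at 16.2 ± 2.71 CPM with propionate and 35.1 ± 7.06 CPM in controls. EXOC6, with the highest correlation, fell by only 0.39 on the log2 scale. It did not pass without any single library other than control library 1 (edgeR adjusted p 0.0509 to 0.0949). Nor did EXOC6 pass under DESeq2 (adjusted p = 0.0569) or with the transcript GC trend removed (edgeR adjusted p = 0.126). HOXA7 and HOXA-AS3 lie in 1 gene cluster on opposite strands, so their reads cannot be told apart without a stated strand setting.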

How the data were processed

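RNA sequencing libraries of LS 174T cells were made from 500 ng of total RNA, per the labels' protocols, with a Lexogen QuantSeq kit, which reads 3′ ends; the printed catalogue number may be that of another product. The submitters' processing notes name Bowtie2, edgeR, hg19 and GRCh37 with no role. Sources used here give no read counter, strand setting or annotation. The authors deposited raw counts of reads per symbol, 1 table per library, with 25737 lines; 286 symbols on several lines were summed. No line lacked a gene name, so no row was left out of the totals.

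The test was the quasi-likelihood F test of edgeR 4.0.16 under R 4.3.3, run on the 13605 genes that filterByExpr kept, with TMM factors, two-sided, adjusted by Benjamini-Hochberg over all of them. CPM used the TMM factors. The SE is the size of the log2 fold change over the square root of F. For rare genes the ratio of summed reads is given with an exact (Clopper-Pearson) 95% interval, and intervals cover counting error only. The script was tested on simulated data with known fold changes. DESeq2 1.42.0, limma-voom (limma 3.58.1), other scalings, filters and thresholds, removal of a GC trend (splines with 4 degrees of freedom on GENCODE release 29 transcripts, 93.4% of tested genes matched) and leaving out each library were tried. The version with the GC content of the last 500 bases and the left-out libraries of the within-family ratios were added after the data were seen.

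Groups and replicate numbers came from the sample titles. Deviations from the group mean had correlations of 0.200, 0.328 and 0.372 between libraries with the same number, over 10792 genes. All were over 0.1, so libraries with the same number were treated as pairs in an alternative fit; no label states a shared day, and the pairing comes from the data. Within groups, libraries differed beyond counting noise (chi-square per degree of freedom 6.01 to 8.85).

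The 8 genes, the gene lists and the tests were chosen with earlier results of these data known. The genes named were the 8 factors, their listed relatives and noncoding neighbours with reads, up to 3 called genes per direction and list by smallest p, and the 5 genes most like the factor with the largest change. A single gene that the text adds in naming an overlap, a marker without reads, a part of a summed level or the other members of a count was chosen after its values were seen. Some genes of the lists are counted but not reported here by name.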

Additional observations from a re-analysis of the deposited data

How the results depend on the processing

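Each of the 8 factors was read under 19 alternatives. FOXA1, FOXA3 and CDX2 kept their direction and their call in all of them, and FOXA2 and HNF4G passed in none. The count of lower factors, 4 as reported, ran from 2 to 4 without single libraries. Over all tested genes, lower calls ran from 1864 to 1999 in those fits, against 2316 as reported. The count of lower factors was 2 at an adjusted p under 0.01. At that threshold CDX1 (-0.24) and GATA6 (-0.48) missed, and 1424 genes were lower in all against 2316. Without single libraries the log2 fold change of CDX1 ran from -0.27 to -0.21 and that of GATA6 from -0.65 to -0.37. With the replicate block HNF4A (0.19) was called and 2 factors were higher, and the block changed no other call among the 8. With the transcript GC trend removed FOXA2 was -0.069, and -0.073 with the replicate block added. Turns of sign among the other named genes were those of MUC2 (-0.0058 with the 3′ end GC trend removed and -0.0055 with the block added), of MUC6 (-0.065 and -0.063 for the same), of NR2F6 (-0.0051 to 0.14 without single libraries, -0.34 and -0.34 with the transcript GC trend removed without and with the block, -0.13 and -0.13 for the 3′ end) and of GATA6-AS1 (0.0073 with upper-quartile factors, -0.14 to 0.13 without single libraries). The median log2 fold change of the tested genes also moved, from -0.0069 as reported to -0.043 with the transcript GC trend removed and -0.049 with the 3′ end trend removed. A value near 0 in those fits can thus lie above the median. The causes of these turns were not tested. Over the 60 other named genes 1060 of 1140 alternatives kept direction and side of the threshold. Many of these genes were named for their small p in these same data, so that share was partly set by the choice. The alternative at an adjusted p under 0.01 was the reported fit read at that threshold, so its direction could not change. The difference in the log2 ratio of FOXA1 to FOXA3, propionate minus control, ran from -2.27 to -1.88 without single libraries. Depth limits HNF4G, with 11 to 28 reads a library.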
